A study of Mus musculus with 12 samples.

Results

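Leaflets of the aortic valve from mice lacking fibulin-4 in both targeted cell types (DKO) were compared with leaflets from control mice (CTRL). The comparison used the 3 DKO and 3 CTRL libraries among the 12 of the series, chosen by their genotype labels, and was read across the 6296 of 41709 genes that had enough counts to be tested. Both groups were C57BL/6J;129SvEv mice aged 2 months, and the labels tell them apart by genotype code alone. They do not name the gene. From what is known of the study, the gene is Efemp2, which encodes fibulin-4, and DKO combines its loss from endothelium with its loss from smooth muscle, while ECKO and SMKO carry the single deletions. The Cre drivers, the genotype of the controls, the deleted exons and how many animals a library holds were not found in the labels.

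Fibulin-4 is a secreted glycoprotein of the extracellular matrix. It brings tropoelastin and the cross-linking enzyme lysyl oxidase together on microfibrils, and mice without it do not build normal elastic fibres. In an aortic valve leaflet, elastic fibres line the side that faces the ventricle, a proteoglycan layer lies in the middle, and collagen on the aortic side carries the closing load. Interstitial cells make most of this matrix, and an endothelial sheet covers both faces.

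Whole leaflets were cut by laser from stained frozen sections, so each library mixed all cells of the leaflet, and fewer cells of a type cannot be told apart from less RNA per cell. The CTRL libraries 1, 2 and 3 held 576910, 561166 and 159857 counts in total, and the DKO libraries in the same order 247718, 455478 and 260449. Replicates are called biological triplicates, and with no animal named the p-values measure the spread between these libraries. Mitochondrially encoded genes took 10.5%, 11.2% and 26.7% of CTRL counts and 20.7%, 10.5% and 21.0% of DKO counts. Counts of Y-linked genes came to 30 in CTRL 3 and 28 in DKO 3, with 0 in the other 4 libraries, so each group held 1 such library. CTRL 3 stood apart from the other 5: on the first principal component of log2 CPM, which held 36.1% of their variance, it lay at 49.7 and the others between -19.4 and -1.85. Most markers of interstitial cells were high in both groups (decorin, Dcn, 17153 ± 2228 CPM in CTRL and 12694 ± 3637 in DKO; CPM being counts scaled by TMM to a common library size, mean ± SD, n = 3). Pdgfra was lower in DKO, at 193 ± 57.5 and 59.8 ± 12.5 CPM, while Lum, Col1a1, Col3a1 and Vim had higher means there. Endothelial Pecam1 was present at 237 ± 74.9 and 344 ± 61.5 CPM and Tie1 at 67.2 ± 19.4 and 74.5 ± 43.4. The endothelial markers Cdh5, Kdr and Emcn had lower means in DKO, at 113, 44.5 and 126 CPM in CTRL and 52.8, 15.3 and 60.6 in DKO. None of these markers was called by edgeR. The smooth muscle markers Myh11 and Cnn1 had 1 and 0 counts in all over the CTRL libraries, and over the DKO libraries 6 and 1. Acta2, listed with them, was well detected, with 237 counts over the CTRL libraries and 208 over the DKO libraries (168 ± 18.7 and 214 ± 21.2 CPM). Cd3e of T cells and Cd79a of B cells had 0 counts in both groups. Of heart muscle genes, Myh6, Actc1 and Myl2 had 4, 11 and 7 counts over the CTRL libraries and 0 over the DKO libraries, while Tnnt2 had 28 and 56 (log2 fold change 1.65 ± 1.03, SE, adjusted p = 0.61). The 17 listed heart muscle genes summed to 30.6, 66.5 and 111 CPM in CTRL and 90.8, 79.7 and 91.2 in DKO.

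In DKO leaflets, 18 genes rose and 13 fell at an adjusted p under 0.05, or 0.286% and 0.206% of the 6296 genes tested and 0.492% together (edgeR's quasi-likelihood F test, Benjamini-Hochberg adjustment, all 12 libraries in 1 model). The rises ran from 2.01-fold for Nes to 8.05-fold for Sphk1. The falls other than that of Efemp2 ran from 2.34-fold for Abcc9 to 8.35-fold for Ccl19. Elastin and a microfibril-associated protein, a basement membrane collagen, a Wnt ligand, a growth factor, a mechanically gated channel and the maker of sphingosine 1-phosphate were among the genes that rose. A chemokine, a fatty acid transporter, a desmosome protein, a potassium channel subunit, a small proteoglycan and the transcription factor Gata3 were among those that fell. For all 31 genes the 3 DKO libraries lay outside the range of the 3 CTRL libraries, which was also so for 17.8% of all genes tested (9.7% above and 8.13% below). Of the 31, 18 had fewer than 10 counts in at least 1 of the 6 libraries.

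The number of calls depended on which libraries entered the model. It was 6 without CTRL 1, 4 without CTRL 2, 12 without DKO 1, 15 without DKO 2 and 7 without DKO 3, against 29 without CTRL 3. Libraries outside the pair, which enter the same model, moved it as well: it was 71 without SMKO 1 and 139 without SMKO 2. It was 99 when the 6 CTRL and DKO libraries were fitted alone. The calls of Wnt9b and LTO1 held in each of the 12 fits that left out 1 library, while every other called gene, 29 in all, missed the threshold in 1 or more of those fits, the highest adjusted p being 0.362.

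**Figure D1:**
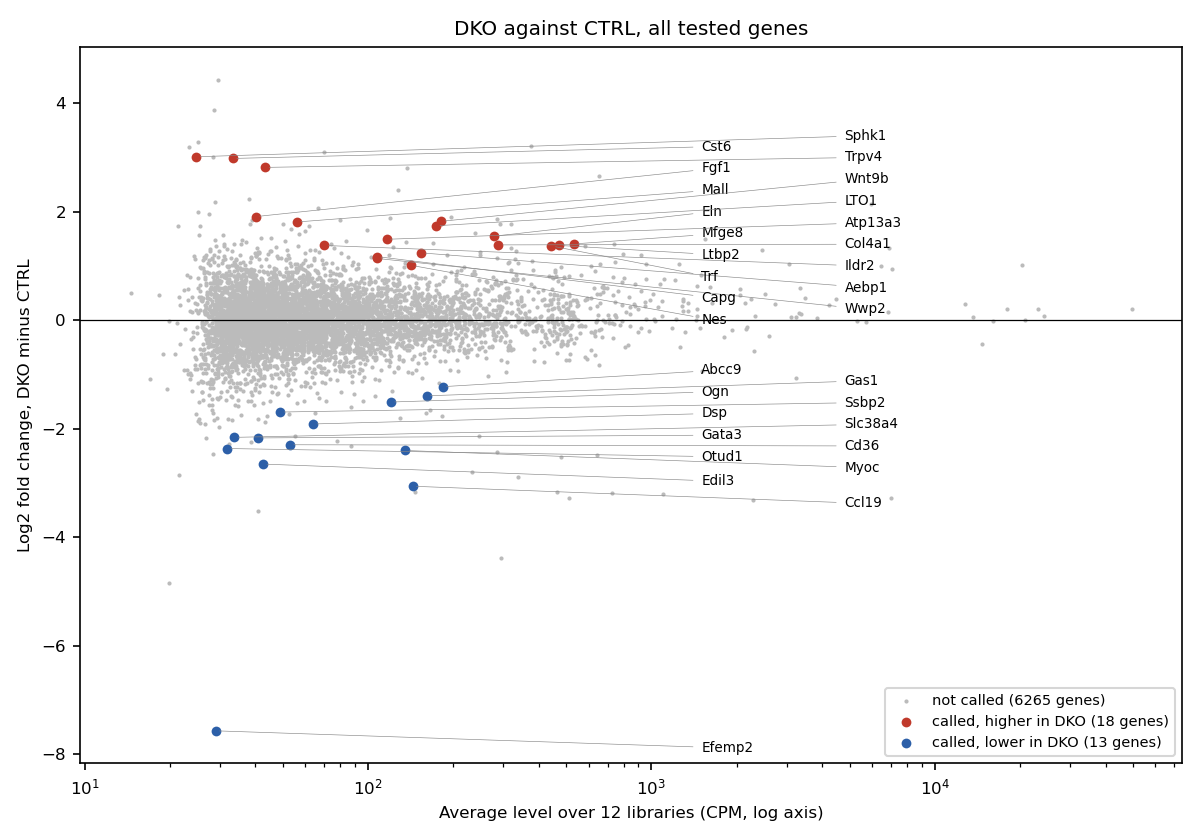
Log2 fold change of DKO over CTRL against the average level in CPM (log axis) for the 6296 genes tested, with the 18 genes called higher in red, the 13 called lower in blue and the rest in grey. The called genes other than Efemp2 sit between -3.06 and 3.01 on the log2 scale, and several uncalled genes lie farther from 0 than they do.

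Efemp2 was checked first, since its counts test the labels. It had 58, 23 and 9 counts in CTRL 1, 2 and 3 (84.5, 35.5 and 66.9 CPM) and 0 counts in each DKO library. Set against a floor of 3 counts pooled over the DKO libraries, or 3.11 CPM, the CTRL mean was at least 20.0-fold higher. The adjusted p of the edgeR test was 0.000497, and the exact two-sided permutation p was 0.1, the smallest that 3 libraries against 3 can give. The call was lost without CTRL 1, the library with the most counts of this gene (adjusted p = 0.0592). Exons of Efemp2 overlap those of Mus81 on the opposite strand, and the library kit does not keep the strand.

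Among elastic fibre genes, the core protein rose while several partners were lower without a call. Eln, which encodes tropoelastin, stood at 175, 136 and 178 CPM in the CTRL libraries and 472, 558 and 377 in the DKO libraries, a rise of 1.55 ± 0.29 on the log2 scale (± SE; adjusted p = 0.00971). Ltbp2, a protein of fibrillin microfibrils, stood at 283, 294 and 282 in CTRL and 545, 824 and 858 in DKO (1.38 ± 0.31, adjusted p = 0.0312). The CTRL values of Ltbp2 lay within a narrow band, and the lowest DKO value of either gene was well above the highest CTRL value. On the length-corrected TPM scale the authors deposited, Eln averaged 80.1 ± 25.1 in CTRL and 209 ± 85.2 in DKO, and Ltbp2 81.5 ± 26.8 and 187 ± 71.0 (SD, n = 3).

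The list of elastic fibre and microfibril proteins had 17 tested members of 21. Of these, 2 rose, 1 fell (Efemp2) and 14 passed no threshold, 7 of them above 0 and 7 below, with a median log2 fold change of 0.05 over the list against 0.02 over all genes tested. The other fibulins differed among themselves. Efemp1, or fibulin-3, a relative of fibulin-4, stood at 72.9, 61.8 and 59.4 CPM in CTRL and 22.7, 25.9 and 37.3 in DKO (-1.22 ± 0.41, adjusted p = 0.197). Fbln2 stood at 163, 162 and 193 and 254, 267 and 232 (0.56 ± 0.27, adjusted p = 0.406). Neither passed, and the groups did not overlap in either gene, which held for 17.8% of all genes tested. Fbln5, which like fibulin-4 binds tropoelastin, was at 0.67 ± 0.34, and Fbn1, which encodes the main fibrillin of microfibrils, at 0.92 ± 0.47. The microfibril-associated genes Mfap2 and Mfap4 were at -0.79 ± 0.33 and -0.78 ± 0.33 without a call. In the 12 fits that left out 1 library, Eln missed in 3, with an adjusted p of up to 0.123 without CTRL 2. Ltbp2 missed in 9, with up to 0.21 without CTRL 1.

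All 4 tested lysyl oxidases, the enzymes that cross-link elastin and collagen, lay above 0 (median 1.12), and none passed in edgeR. At an unadjusted edgeR p under 0.05, 3 were higher, and DESeq2 called Loxl2. At that level 407 of the 6296 genes tested were higher and 325 lower, and such counts in other lists are to be set beside these. DESeq2 gave some genes no adjusted p, so it could not call them in this or any other list. Calls by DESeq2 in a list are to be set beside the number it called over all genes, given below with the other settings. Loxl2 came closest in edgeR, at 185, 212 and 215 CPM in CTRL and 572, 536 and 357 in DKO (1.27 ± 0.31, adjusted p = 0.0542). Lox itself was low, at 33.5, 21.6 and 14.9 CPM in CTRL and 45.4, 67.7 and 33.2 in DKO, and its groups overlapped.

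Collagen genes lay mostly higher in DKO, with 1 called by edgeR. Col4a1, a chain of the basement membrane network, stood at 189, 149.9 and 171 CPM in CTRL and 495, 446 and 394 in DKO, a rise of 1.39 ± 0.29 (adjusted p = 0.0188). All DKO values lay above all CTRL values. Col4a2, its partner chain, transcribed from the opposite strand of the same locus and overlapping it in exon sequence, stood at 154, 124 and 186 and 563, 498 and 489 without passing (1.77 ± 0.53, adjusted p = 0.214). In the basement membrane list, edgeR called 1 of 16 tested members higher and none lower, and DESeq2 called Col4a1, Col4a2 and Col15a1 higher. The other members were 11 above 0 and 4 below, with a median of 0.47. The call of Col4a1 was lost when any 1 of the 6 CTRL or DKO libraries was left out, with an adjusted p of up to 0.162 without CTRL 2.

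All 7 tested chains of fibrillar collagen lay above 0, with a median of 0.80. None passed in edgeR, 5 were higher at an unadjusted p under 0.05, DESeq2 called Col1a1 and Col1a2, and limma-voom called none. The summed level of all 11 listed chains was 6750.3, 4989 and 7021 CPM in CTRL and 13079.9, 10728 and 13078 in DKO. Col1a1, of the main tensile collagen, stood at 1688, 981 and 2095 in CTRL and 4440.2, 2780.1 and 4437 in DKO (1.29 ± 0.39, adjusted p = 0.132). Col5a2, of the collagen that starts fibrils, stood at 373, 468 and 423 and 917, 896 and 717 (1.00 ± 0.32, adjusted p = 0.175). For 5 of the 7 genes all DKO libraries lay above all CTRL libraries, which held for 9.7% of all genes tested. In the list of collagens VI and VIII and the collagens that coat fibrils, 8 of 9 lay above 0 (median 0.79), without a call in edgeR, with 5 higher at an unadjusted p under 0.05, and with 1 call each in DESeq2 (Col6a1) and limma-voom (Col8a1). Col16a1 and Col6a1 were just outside the threshold. Col6a1, which forms beaded filaments around cells, stood at 699.5, 590.4 and 483 CPM in CTRL and 1403, 1308 and 1368 in DKO (1.19 ± 0.31, adjusted p = 0.0685).

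Genes that fold, trim and bind collagen showed the same side, with 23 of 24 above 0 (median 0.61) and none called by edgeR, DESeq2 or limma-voom, while 12 were higher at an unadjusted p under 0.05. Over all genes tested, 407 were higher and 325 lower at that level. Serpinh1, the collagen chaperone HSP47, stood at 375, 243 and 357 CPM in CTRL and 636, 661 and 535 in DKO (0.92 ± 0.29, adjusted p = 0.168). Pcolce, which speeds the removal of procollagen C ends, stood at 271, 175 and 319 and 436, 374 and 614 (0.92 ± 0.29, adjusted p = 0.168). Sparc, a collagen-binding glycoprotein, was at 2198, 1943 and 3158 and 11732, 7506 and 12854 (2.14 ± 0.54, adjusted p = 0.0742). It was also at 2731, 15775 and 2567 CPM in SMKO 1, 2 and 3, so that 1 SMKO library exceeded every DKO library.

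**Figure D2:**
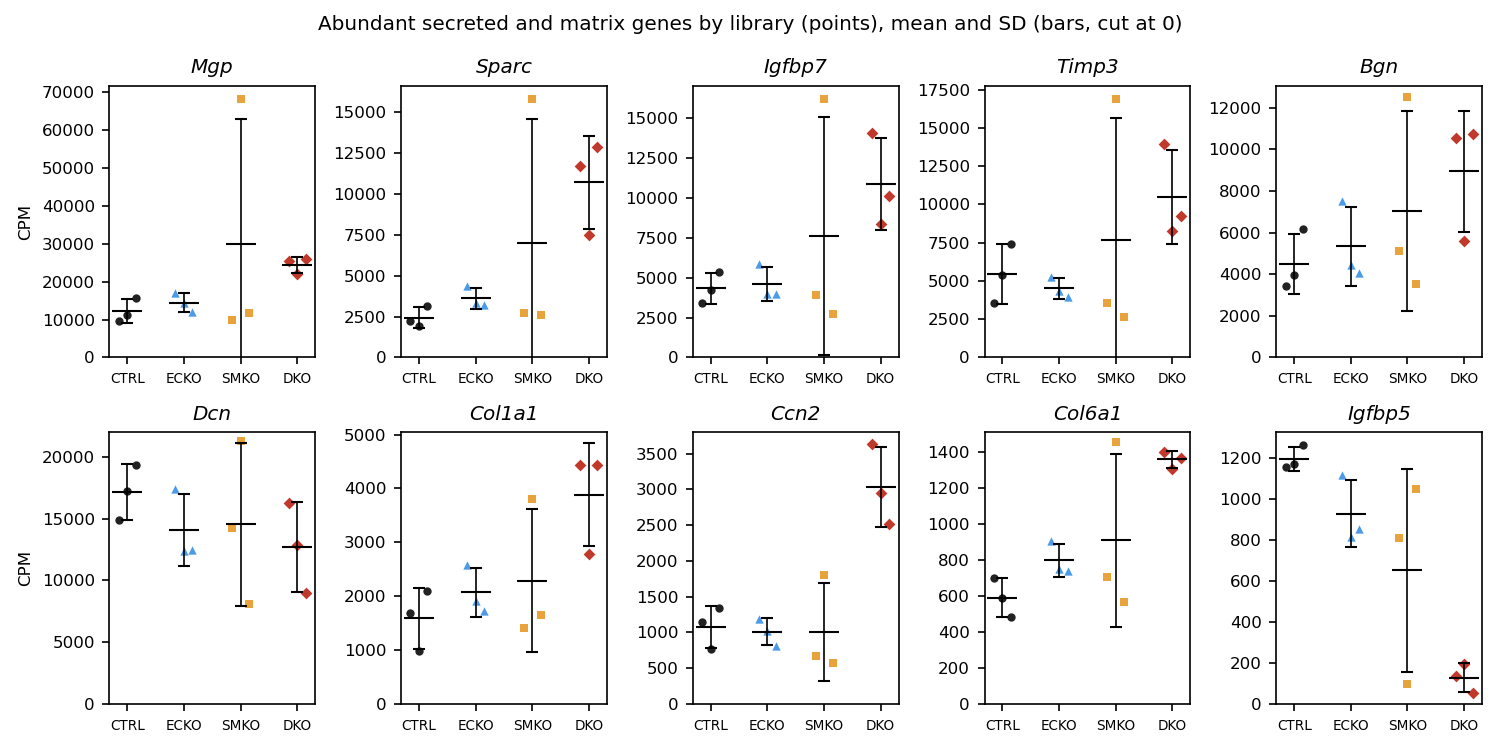
Levels in CPM (linear axes from 0) of 10 abundant secreted or matrix genes in the 3 libraries of each group, as points with the mean and SD as bars. None of the 10 was called, and for Mgp, Sparc, Igfbp7, Timp3, Bgn, Dcn and Col6a1 the highest of all 12 points is SMKO 2.

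Secreted proteins that sit between cells and matrix went both ways. Mfge8, a secreted bridge between integrins and dying cells whose fragment medin deposits in ageing arteries, stood at 338, 267 and 297 CPM in CTRL and 658, 559.6 and 1182 in DKO (1.40 ± 0.30, adjusted p = 0.0225). Aebp1, a collagen-binding protein needed for a sound extracellular matrix, stood at 111, 94.3 and 81.7 and 199.8, 165 and 344 (1.24 ± 0.28, adjusted p = 0.0312). In both genes the highest value was DKO 3. The call of Mfge8 was lost in 5 of the fits that left out 1 library and that of Aebp1 in 7, and the adjusted p was highest without DKO 3, at 0.207 and 0.297. Edil3, a secreted integrin ligand of the same domain family as Mfge8, fell from 33.5, 72.6 and 96.6 CPM in CTRL to 9.08, 9.96 and 8.29 in DKO (-2.65 ± 0.51, adjusted p = 0.00971). Its DKO values rested on 2, 5 and 2 counts. The matricellular list, which these genes belong to, had 2 of 22 tested members higher, 1 lower and a median of 0.26. Ccn2, a target of TGF-beta and of YAP, was the second gene outside the threshold, with 1139.6, 763 and 1337 CPM in CTRL and 3632, 2953 and 2521 in DKO (1.50 ± 0.36, adjusted p = 0.0535).

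Ogn, or osteoglycin, a small leucine-rich proteoglycan of collagenous tissue, fell from 141, 125 and 111 CPM to 36.3, 49.8 and 45.6 (-1.51 ± 0.34, adjusted p = 0.0312). Its relatives did not move as a block. Fmod, or fibromodulin, stood at 616, 663 and 617 in CTRL and 876, 946 and 2057 in DKO (1.03 ± 0.30, adjusted p = 0.125), and Aspn, or asporin, at 119.5, 47.9 and 52.0 and 18.2, 23.9 and 29.0 (-1.70 ± 0.73, adjusted p = 0.406). Dcn, the most abundant of them, was at -0.43 ± 0.44 with overlapping groups. DESeq2 called Fmod higher. Of the 9 tested members, 1 fell, 5 lay above 0 and 3 others below. The call of Ogn was lost in 7 of 12 leave-one-out fits, the highest adjusted p being 0.203.

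Among ligands, receptors and channels, 4 genes of different pathways rose. Wnt9b, a Wnt ligand that endothelium makes during valve development, stood at 90.4, 75.7 and 89.2 CPM in CTRL and 349.6, 269 and 282 in DKO (1.82 ± 0.27, adjusted p = 0.000645). The lowest DKO library was close to 3 times the highest CTRL library. Fgf1, a fibroblast growth factor, stood at 13.1, 18.5 and 29.7 and 54.5, 77.7 and 62.2 (1.91 ± 0.44, adjusted p = 0.0312). Trpv4, a calcium channel that opens on stretch and osmotic swelling, stood at 13.1, 7.73 and 14.9 and 81.7, 65.7 and 95.4 (2.81 ± 0.49, adjusted p = 0.00491), on 9, 5 and 2 counts in CTRL. Sphk1, the kinase that makes sphingosine 1-phosphate, stood at 4.37, 7.73 and 7.43 and 54.5, 45.8 and 58.1 (3.01 ± 0.59, adjusted p = 0.0113), on 3, 5 and 1 counts in CTRL. These last levels in CTRL were close to what a handful of reads can measure. Without CTRL 2 the adjusted p of Trpv4 was 0.11, and without CTRL 1 that of Sphk1 was 0.203 and that of Fgf1 0.255.

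The lists around these genes held no other call in edgeR. In the Wnt list, Wnt9b was the 1 called gene of 27 tested, and the median was close to 0. Nkd2, an inhibitor of the pathway, and Frzb, a secreted Wnt antagonist, were at 1.05 ± 0.35 and 0.81 ± 0.28 without passing. In the sphingosine 1-phosphate list, 1 of 11 rose. Sphk2, the second kinase, was at 1.40 ± 0.46 (adjusted p = 0.197), and Enpp2, or autotaxin, which makes the related lipid lysophosphatidic acid, stood at 380.4, 337 and 230.3 CPM in CTRL and 109, 59.7 and 58.1 in DKO without passing (-2.13 ± 0.61, adjusted p = 0.201). DESeq2 called Enpp2 lower, as did the fits without SMKO 2 and of the CTRL and DKO libraries alone. In the growth factor list, 1 of 15 rose. Pdgfb, a mitogen for mural cells, stood at 2.91, 6.18 and 0 CPM in CTRL and 40.9, 51.8 and 20.7 in DKO and was close to the threshold (3.19 ± 0.84, adjusted p = 0.0749). In the YAP list edgeR called none of 17 and the median was -0.02, with Ccn2, a member, called by DESeq2. In the TGF-beta list no tool called any of 17 in the fit of all 12 libraries and the median was 0.05. Inhba, a member, was at 1.33 ± 0.48 there (adjusted p = 0.288). It was the 1 call of 17 tested both without SMKO 2 and in the fit of the CTRL and DKO libraries alone. Those fits had 1.15% and 1.16% of all genes higher. At an unadjusted p under 0.05 the YAP list had 1 gene higher and 1 lower and the TGF-beta list 2 and 1.

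LTO1, a factor that helps load an iron-sulphur cluster onto a protein of ribosome recycling, stood at 97.6, 78.8 and 89.2 CPM in CTRL and 291, 229 and 377 in DKO (1.74 ± 0.27, adjusted p = 0.000692). Its exons overlap those of Ccnd1, which encodes cyclin D1, on the opposite strand. Without strand, reads in the overlap cannot be told apart from that gene's, and the extent of the overlap was not measured. Ccnd1 itself was at 1.15 ± 1.01 without passing (adjusted p = 0.743). Trf, for transferrin, the iron carrier of plasma, stood at 342, 261 and 327 and 795, 544 and 1062 (1.37 ± 0.29, adjusted p = 0.0225). The highest Trf level was in DKO 3. The call was lost in 5 of the fits that left out 1 library, at most to an adjusted p of 0.19, without CTRL 2. Trf was the 1 called gene of 9 tested for iron handling (median 0.02). Ftl1, of ferritin light chain, was at 0.64 ± 0.38 with overlapping groups. An annotated transcript, Gm20425, shares exon sequence with Trf on the same strand.

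The other 7 genes that rose have varied roles. Cst6, or cystatin E/M, an inhibitor of cysteine cathepsins, stood at 5.83, 7.73 and 7.43 CPM in CTRL, on 4, 5 and 1 counts, and at 59.0, 49.8 and 62.2 in DKO (2.98 ± 0.63, adjusted p = 0.0225). Atp13a3, a polyamine transporter, stood at 56.8, 68.0 and 81.7 and 168, 197 and 187 (1.49 ± 0.32, adjusted p = 0.0225). Mall, a membrane raft protein, stood at 36.4, 17.0 and 44.6 and 86.3, 106 and 116 (1.81 ± 0.37, adjusted p = 0.0188). Each of these had DKO values well clear of the CTRL values. Ildr2 stood at 36.4, 41.7 and 59.4 and 81.7, 121 and 120.3 (1.38 ± 0.30, adjusted p = 0.0225). Wwp2, a ubiquitin ligase, stood at 68.5, 63.4 and 81.7 and 154, 157 and 141 (1.14 ± 0.26, adjusted p = 0.0312). The smallest of the rises were those of 2 genes at the edge of the threshold. Nes, the intermediate filament protein nestin, stood at 93.3, 107 and 111 and 213, 233 and 166 (1.01 ± 0.24, adjusted p = 0.0495). Capg, which caps actin filaments, stood at 55.4, 97.4 and 52.0 and 154, 185 and 141 (1.17 ± 0.28, adjusted p = 0.0495). Of the 12 leave-one-out fits, Nes and Capg each missed in 9, Wwp2 in 8, Cst6 in 6, Atp13a3 in 5 and Mall and Ildr2 in 4, the highest adjusted p being 0.303 for Capg without CTRL 1.

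The list of serpins and cystatins, to which Cst6 belongs, had 11 of 13 tested members above 0 (median 0.92) and Cst6 as its 1 call. Serpine2, an inhibitor of thrombin and plasmin, stood at 131, 153 and 119 CPM in CTRL and 436, 546 and 514 in DKO without passing (1.87 ± 0.69, adjusted p = 0.329). Its level in SMKO 1, 2 and 3 was 78.3, 698 and 110.4. Among lysosomal genes 17 of 21 lay above 0 (median 0.32), and none was called by edgeR, DESeq2 or limma-voom, with 5 higher and 1 lower at an unadjusted p under 0.05. Ctsd, or cathepsin D, stood at 248, 261 and 542 and 1058, 591 and 987 (1.37 ± 0.55, adjusted p = 0.36).

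**Figure D3:**
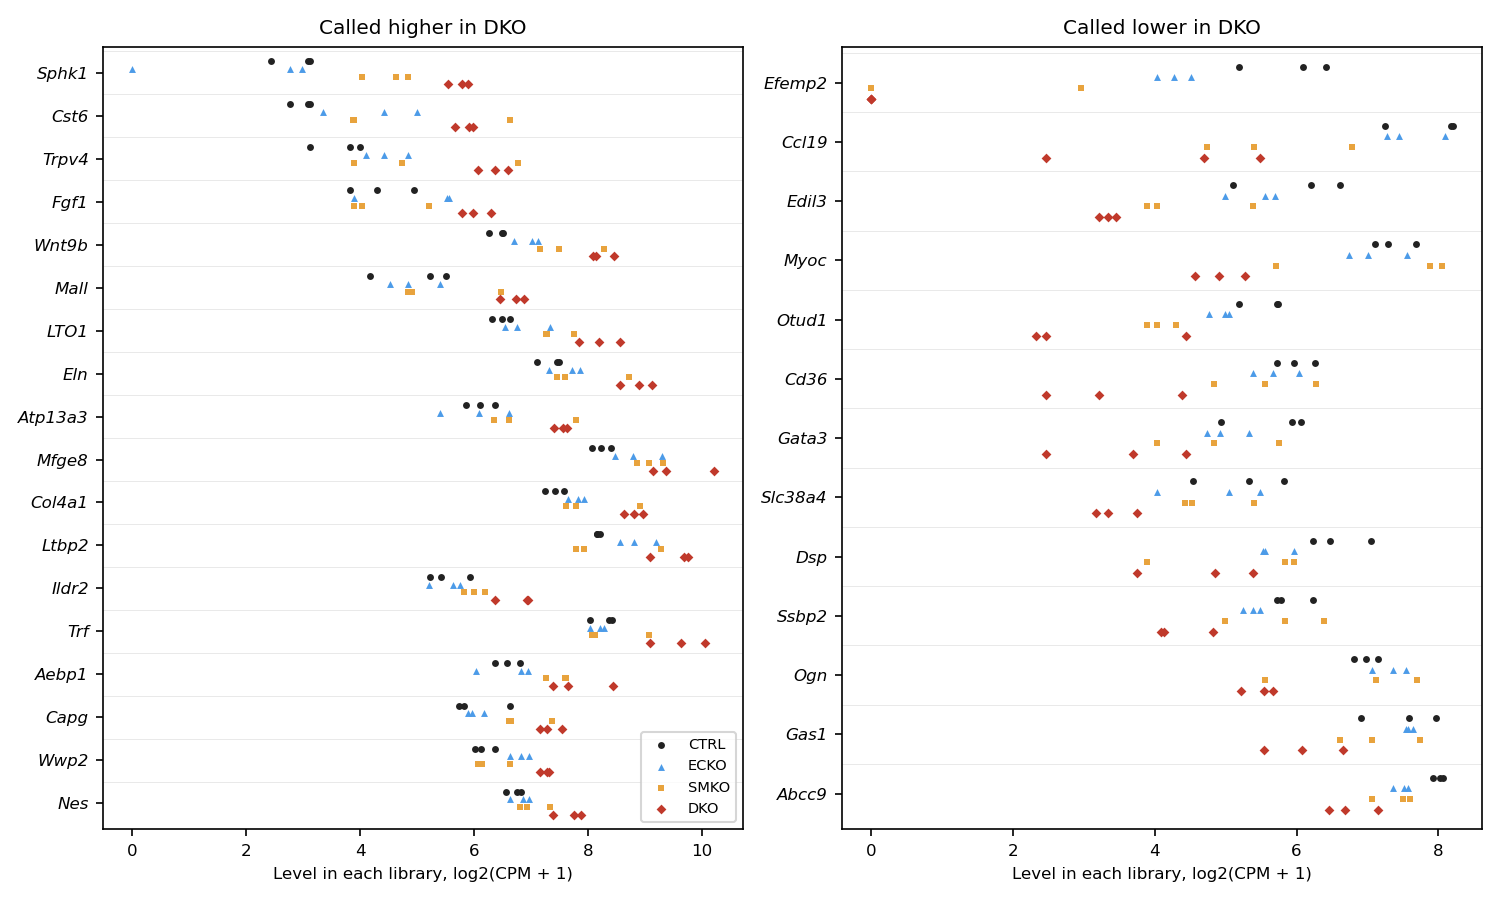
Level of each called gene in each of the 12 libraries, as log2(CPM + 1), with genes called higher on the left, genes called lower on the right and 1 symbol per group. All DKO diamonds lie to 1 side of all CTRL circles.

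Of the genes that fell, Ccl19, a chemokine that draws T cells and dendritic cells, had the largest change after Efemp2. It stood at 294, 151 and 289.8 CPM in CTRL and 4.54, 43.8 and 24.9 in DKO (-3.06 ± 0.55, adjusted p = 0.0312). DKO 1 held 1 count and DKO 2 the most, and without DKO 2 the log2 fold change was -3.96. The call was lost without CTRL 1, CTRL 3, SMKO 3 or DKO 3, with 0.135 as the highest adjusted p. Ccl19 was the 1 called gene among 8 tested chemokines and cytokines. Ccl2, a chemokine for monocytes, was at 1.57 ± 0.50 in the other direction without passing (adjusted p = 0.175). The T and B cell markers Cd3e and Cd79a had no counts in either group, and Ptprc of all white cells was at -0.64 ± 0.39 with overlapping groups.

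Cd36, a fatty acid and lipoprotein receptor of capillary endothelium, macrophages and fat cells, fell from 61.2, 75.7 and 52.0 CPM to 4.54, 19.9 and 8.29 (-2.30 ± 0.43, adjusted p = 0.00971). Without DKO 2 the log2 fold change was -3.27, and the call was lost without CTRL 2, DKO 1 or DKO 3 (adjusted p = 0.0994, 0.0585 and 0.0665). Markers of the cells that carry it lay on both sides of 0. Of 19 tested endothelial genes, none was called by any of the 3 tools, though DESeq2 gave Prox1, a member, no adjusted p. At an unadjusted edgeR p under 0.05, 2 were higher and 5 lower, against 407 and 325 of all 6296 genes tested. Of the 19, 9 lay above 0 and 10 below (median -0.06). In edgeR without SMKO 2, 3 of 20 tested endothelial genes were called lower (Prox1, Egfl7 and Kdr) and 1 higher (Sox17). Among all genes of that fit 0.669% were lower and 1.15% higher. The fit of the CTRL and DKO libraries alone called 1 of 18 lower (Egfl7) and 0 higher, against 0.555% and 1.16% among all. The summed level of all 22 listed genes was 2333, 2464 and 2935 CPM in CTRL and 2511, 2615 and 2699 in DKO. Within that list Pecam1 was at 0.58 ± 0.27, Cdh5 at -1.05 ± 0.33 and Kdr, a receptor for VEGF, at -1.49 ± 0.41 (adjusted p = 0.0935), at 40.8, 55.6 and 37.1 CPM in CTRL and 13.6, 19.9 and 12.4 in DKO. Of 13 macrophage genes, none was called by the 3 tools, 0 were higher and 2 lower at an unadjusted p under 0.05, 7 lay above 0 and 6 below, and the sum over all 18 listed genes was 1259, 1597 and 1686 CPM in CTRL and 2724, 1173 and 2189 in DKO. The part of these markers in the fall of Cd36 was not tested.

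Genes of cell contact, excitability and transport also fell. Dsp, or desmoplakin, which anchors desmosomes to intermediate filaments, fell from 87.4, 131 and 74.3 CPM to 40.9, 27.9 and 12.4 (-1.91 ± 0.37, adjusted p = 0.00971). It was the 1 called gene among 16 tested for desmosomes and junctions, with a median close to 0. Abcc9, the sulphonylurea receptor subunit of a potassium channel that senses ATP, fell from 259, 241 and 267 to 141, 102 and 87.1 (-1.23 ± 0.25, adjusted p = 0.0157). The CTRL libraries agreed closely for Abcc9, and the lowest count in the 6 libraries was 21. Slc38a4, an amino acid transporter, fell from 39.3, 55.6 and 22.3 to 9.08, 7.97 and 12.4 (-2.16 ± 0.52, adjusted p = 0.0495), on 2, 4 and 3 counts in DKO. Myoc, or myocilin, a secreted glycoprotein known from the eye's outflow tissue, fell from 137, 206 and 156 to 22.7, 37.8 and 29.0 (-2.40 ± 0.48, adjusted p = 0.0312). Its exons overlap those of Myocos on the opposite strand. Leaving out 1 library removed the call of Dsp in 3 of 12 fits, of Abcc9 in 4, and of Slc38a4 and Myoc in 7 each, Slc38a4 reaching 0.362 without CTRL 2.

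Among regulators of transcription and signalling, Gata3 fell from 65.6, 60.3 and 29.7 CPM to 4.54, 11.9 and 20.7 (-2.17 ± 0.48, adjusted p = 0.0261). The DKO values rested on 1, 6 and 5 counts, and 9230102O04Rik shares exon sequence with Gata3 on the same strand. Gata3 was the 1 called gene among 24 tested transcription factors of the valve, of which 20 lay below 0 (median -0.38). Foxc2, a factor of valve endothelium and lymph vessels, was nearest to the threshold of the rest, at 108, 81.9 and 89.2 CPM in CTRL and 18.2, 31.9 and 49.8 in DKO (-1.49 ± 0.39, adjusted p = 0.0734). Its relative Foxc1 was at -0.74 ± 0.30. At an unadjusted p under 0.05, 7 of the 24 were lower and 0 higher. Meis1, Gata2, Zeb2 and Meis2 ran from -0.84 to -0.77 without passing.

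Gas1, a membrane protein that binds growth factors of the GDNF and hedgehog pathways, fell from 191, 250.4 and 119 CPM to 45.4, 99.6 and 66.3 (-1.40 ± 0.30, adjusted p = 0.0228). It was listed with the BMP genes, where 11 of 16 tested lay below 0 (median -0.31) and no other passed. Id2, a direct target of BMP signalling, stood at 232, 291 and 186 and 123, 131 and 124 (-0.93 ± 0.27, adjusted p = 0.129). The other Id genes did not share its size of change: Id3 was at -0.34 ± 0.26, Id1 at 0.12 ± 0.29 and Id4 at 0.23 ± 0.28, all without a call. Ssbp2, a DNA-binding cofactor of LIM-domain complexes, fell from 53.9, 74.2 and 52.0 to 27.2, 15.9 and 16.6 (-1.69 ± 0.39, adjusted p = 0.0312). Otud1, a deubiquitinase, fell from 52.5, 35.5 and 52.0 to 4.54, 3.98 and 20.7 (-2.37 ± 0.54, adjusted p = 0.0312). DKO 3 stood apart from the other DKO libraries for Otud1, and without it the log2 fold change was -3.36. The calls of Gas1, Gata3, Otud1 and Ssbp2 were lost in 4, 5, 6 and 7 of 12 leave-one-out fits, and the highest adjusted p was 0.264, for Otud1 without CTRL 1.

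Promoters of the called genes were read from RefSeq windows that run from 250 bases before to 50 after a transcript start, on GRCm38.p6. Of the 31 genes, 25 were matched, 13 that rose and 12 that fell. The windows were searched on both strands for 3 short motifs, those of the TEAD factors that YAP works through (GGAATG), of AP-1 (TGANTCA) and of RBPJ, the DNA-binding partner of Notch (TGGGAA). The first and last overlap where the letters TGGGAATG occur. TEAD letters were in the windows of 1 of 13 genes that rose and 3 of 12 that fell, against 14.7% of all 32851 windows in the table and 14.3% of tested genes. AP-1 letters were in 1 of 13 and 0 of 12, against 7.81% and 6.36%. RBPJ letters were in 3 of 13 and 6 of 12, against 25.6% and 26.2%. Those 6 include Efemp2, which is among the genes that fell because it was the gene deleted. Counted by gene instead of by window, the shares over the whole promoter table were 16.6% for TEAD, 8.97% for AP-1 and 28.3% for RBPJ. The windows shown are from the genes that held more than 1 of the 3 motifs, Sphk1 with 5 windows in the table, Abcc9 and Otud1. Capitals mark the motif letters, and each line runs 5′ to 3′ on the strand of the gene. The windows are chr11:116530850-116531149 and chr11:116531587-116531886 on the plus strand for Sphk1, chr6:142702225-142702524 on the minus strand for Abcc9, and chr2:19657481-19657780 on the plus strand for Otud1.
Sphk1 window A: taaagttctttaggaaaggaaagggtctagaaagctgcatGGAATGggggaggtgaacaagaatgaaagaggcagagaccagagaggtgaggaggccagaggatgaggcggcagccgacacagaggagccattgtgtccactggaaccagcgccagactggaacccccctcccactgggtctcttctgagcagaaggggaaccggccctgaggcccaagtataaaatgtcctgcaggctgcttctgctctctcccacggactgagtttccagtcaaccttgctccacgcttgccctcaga
Sphk1 window B: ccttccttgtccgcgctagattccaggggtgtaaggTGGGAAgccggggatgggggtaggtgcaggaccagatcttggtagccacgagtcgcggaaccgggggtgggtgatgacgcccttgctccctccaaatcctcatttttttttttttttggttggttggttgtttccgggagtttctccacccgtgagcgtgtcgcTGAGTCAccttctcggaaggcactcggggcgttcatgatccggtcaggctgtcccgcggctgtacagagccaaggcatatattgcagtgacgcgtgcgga
Otud1: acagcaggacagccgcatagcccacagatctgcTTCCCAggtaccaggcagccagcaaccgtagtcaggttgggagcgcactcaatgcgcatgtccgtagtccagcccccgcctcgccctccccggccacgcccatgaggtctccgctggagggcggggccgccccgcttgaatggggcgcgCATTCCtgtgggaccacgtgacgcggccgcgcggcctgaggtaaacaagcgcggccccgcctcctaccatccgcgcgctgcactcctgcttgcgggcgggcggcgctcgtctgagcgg
Abcc9: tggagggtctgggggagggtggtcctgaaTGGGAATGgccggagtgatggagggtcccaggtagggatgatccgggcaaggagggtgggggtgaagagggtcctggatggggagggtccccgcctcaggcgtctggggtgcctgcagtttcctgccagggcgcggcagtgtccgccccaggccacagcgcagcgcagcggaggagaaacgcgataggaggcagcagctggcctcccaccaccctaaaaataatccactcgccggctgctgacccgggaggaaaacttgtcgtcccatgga
In the first Sphk1 window the capitals are a TEAD match, and in the second an RBPJ match followed by an AP-1 match 50 bases before the start. In the Abcc9 window the RBPJ and TEAD matches overlap. In the Otud1 window both matches are on the minus strand, so the capitals read as the reverse complements TTCCCA and CATTCC. A match says only that the letters occur there.

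Notch genes lay mostly below 0, 10 of 11 (median -0.59), with no call by edgeR, DESeq2 or limma-voom. At an unadjusted edgeR p under 0.05, 4 were lower, against 325 of all 6296 genes tested. Notch2 stood at 222, 158 and 149 CPM in CTRL and 123, 99.6 and 53.9 in DKO (-0.96 ± 0.28, adjusted p = 0.127). The Notch target Hey1 stood at 56.8, 52.5 and 44.6 and 31.8, 15.9 and 16.6 (-1.38 ± 0.45, adjusted p = 0.192). The ligand Jag1 was at -0.59 ± 0.37, and Notch3 was the 1 member above 0, at 0.09 ± 0.44. Immediate early genes, which rise within minutes of a stimulus, were below 0 in 10 of 15 cases (median -0.65). None was called by edgeR, 6 were lower and 1 higher at an unadjusted p under 0.05, and DESeq2 called Nr4a1 and Egr1. Nr4a1 stood at 96.2, 210.2 and 223 CPM in CTRL and 49.9, 93.6 and 33.2 in DKO (-1.40 ± 0.35, adjusted p = 0.0664), and Egr1 at 149, 422 and 260.0 and 59.0, 155 and 24.9 with overlapping groups.

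Insulin-like growth factor genes included wide differences without a call in edgeR. Of 10 tested, 2 were higher and 3 lower at an unadjusted p under 0.05, DESeq2 called Igf2 and Igfbp5 lower, and limma-voom called Igfbp5. Igf2, a growth factor that is abundant before birth, stood at 386, 218 and 498 CPM in CTRL and 4.54, 13.9 and 33.2 in DKO (-4.39 ± 1.15, adjusted p = 0.192). Igfbp5, a binding protein of these factors, stood at 1154, 1168 and 1263 and 136, 193 and 53.9 (-3.18 ± 0.72, adjusted p = 0.12). Igfbp3 was at -2.24 ± 0.84, and Igfbp7 lay on the other side, at 3441, 4219 and 5364 in CTRL and 14047, 8386 and 10155 in DKO (1.32 ± 0.50, adjusted p = 0.247). For each of these 4 genes, of the 10 tested, the groups did not overlap, which held for 17.8% of all genes tested. SMKO 1, 2 and 3 were far apart in them, with Igf2 at 607, 15.4 and 704 CPM and Igfbp5 at 808, 97.6 and 1049. All 4 passed when the model was fitted without SMKO 2, and all 4 passed in the fit of the 6 CTRL and DKO libraries alone.

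**Figure D4:**
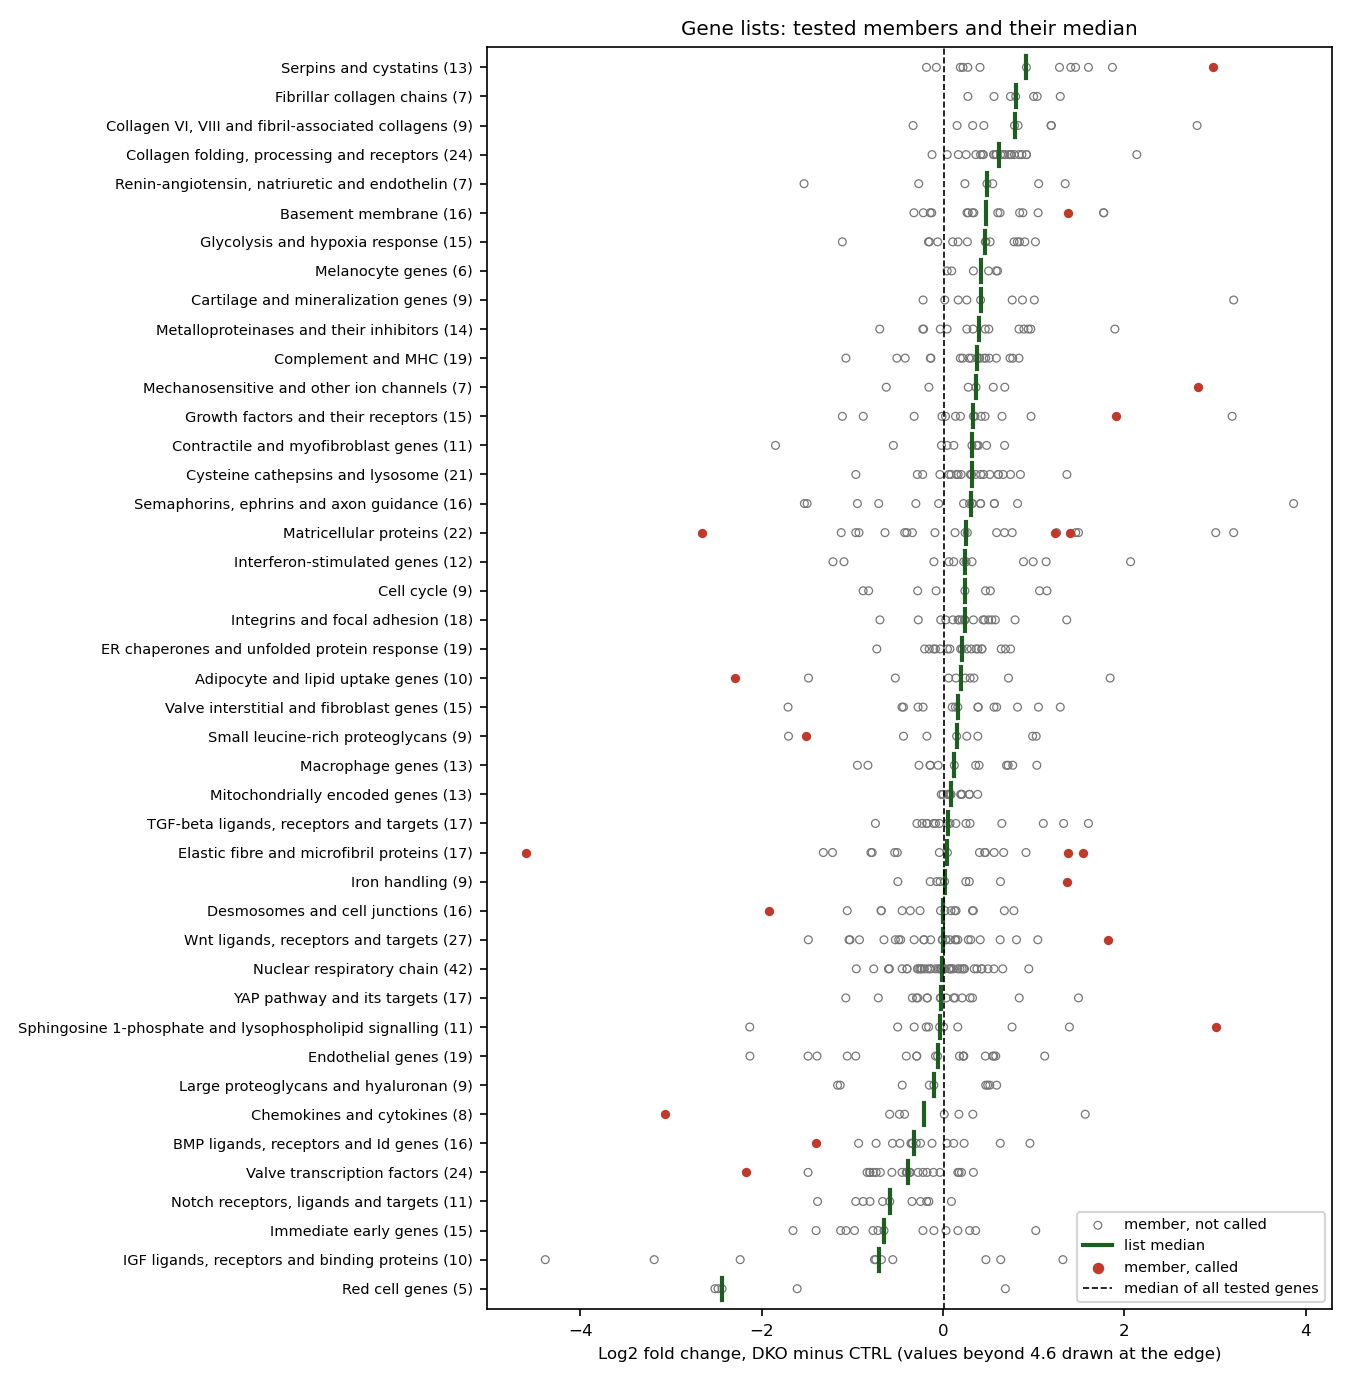
Log2 fold change of DKO over CTRL for the tested members of each gene list with at least 5 tested members (number in brackets), with called members filled, list medians as green bars and the median of all tested genes, 0.02, as a dashed line. Fibrillar collagens lie wholly to the right of 0, while most Notch genes and valve transcription factors lie to the left, and no list holds more than 3 filled points.

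The lists of glycolysis, metalloproteinase, contractile and respiratory chain genes had no call in edgeR, while DESeq2 called Timp1 higher. At an unadjusted p under 0.05, glycolysis genes had 5 higher and 1 lower, and metalloproteinases and their inhibitors 4 and 0. Contractile genes had 1 and 1, nuclear respiratory genes 2 and 2 and mitochondrially encoded genes 0 and 0. Over all 6296 genes tested the numbers were 407 and 325. Of 15 genes of glycolysis and the hypoxia response, 11 lay above 0 (median 0.47), with Gapdh at 163, 148 and 201 CPM in CTRL and 304, 231 and 411 in DKO (0.90 ± 0.31, adjusted p = 0.216). Of 14 metalloproteinases and their inhibitors, 10 lay above 0 (median 0.40), with Timp1 at 94.7, 83.5 and 141 and 377, 418 and 319 (1.90 ± 0.63, adjusted p = 0.271). Contractile genes, 11 tested, had a median of 0.32, and Acta2 of smooth muscle actin was at 0.38 ± 0.24. The 42 nuclear genes of the respiratory chain had a median of -0.01 and the 13 mitochondrially encoded genes one of 0.09.

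Markers of melanocytes and red cells were uneven between libraries. The 12 listed melanocyte genes summed to 417, 946 and 289.8 CPM in CTRL and 1235, 566 and 597 in DKO, with 6 of 6 tested above 0, none called, 0 at an unadjusted p under 0.05 and all overlapping. The 9 listed red cell genes summed to 632, 226 and 3455 CPM in CTRL and 241, 133 and 473 in DKO, the high value being CTRL 3 (median -2.44, none called). The part of these cells in any called gene was not tested.

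By absolute level, the largest differences belonged to genes that were not called. Mgp, or matrix Gla protein, a strong inhibitor of calcification, stood at 9623, 11176 and 15743 CPM in CTRL and 25329, 22093 and 26095 in DKO (1.01 ± 0.55, adjusted p = 0.505). Its level in SMKO 1, 2 and 3 was 9959, 68108 and 11815. Sparc, Igfbp7, Timp3, Dcn and Bgn followed among the secreted proteins, with Bgn, or biglycan, at 3439, 3944 and 6152 in CTRL and 10533, 5592 and 10727 in DKO and overlapping groups. Predicted gene Gm10800 stood at 74.3, 716 and 35402 in CTRL and 1385, 1665 and 676 in DKO, the high value being CTRL 3.

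The libraries of the single deletions were set beside the called genes as levels only, since all comparisons with CTRL share its 3 libraries. For the 18 genes that rose, SMKO 2 reached at least the lowest DKO value in 11, ECKO 2 in 2, SMKO 3 in 1, and ECKO 1, ECKO 3 and SMKO 1 in 0. For the 13 that fell, SMKO 2 was at or below the highest DKO value in 6, SMKO 3 in 5, SMKO 1 in 1 and no ECKO library in any. SMKO 3 was the library with the fewest counts, 74827, and 3 counts were worth 41.4 CPM in it. Its low levels, that of Ccl19 among them, therefore rest on a handful of reads, and a fall there cannot be told apart from low depth. Eln, for example, stood at 230.4, 158 and 209 CPM in ECKO 1, 2 and 3 and at 174, 421 and 193 in SMKO 1, 2 and 3. Ccl19 stood at 174, 271 and 154 in ECKO and 109, 25.7 and 41.4 in SMKO. Abcc9 stood at 189, 182 and 163 in ECKO and 180.3, 134 and 193 in SMKO, where SMKO 2 lay within the DKO range and the other 5 values between the groups of CTRL and DKO.

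Just past the threshold lay 20 genes with an adjusted p from 0.0513 to 0.0734, 11 higher and 9 lower, and the last called genes, Slc38a4, Nes and Capg, were at 0.0495. The first outside was Sema3g, a semaphorin of arterial endothelium, at 5.83, 3.09 and 0 CPM in CTRL and 54.5, 51.8 and 87.1 in DKO (3.87 ± 0.86). Itga5, the fibronectin receptor chain, stood at 24.8, 30.9 and 37.1 and 72.6, 77.7 and 74.6 (1.37 ± 0.34, adjusted p = 0.0626), and Fdps, of sterol synthesis, at 17.5, 7.73 and 7.43 and 63.6, 51.8 and 53.9 (2.18 ± 0.55, adjusted p = 0.0626). On the lower side, Prox1, a factor of lymphatic and valve endothelium, stood at 42.3, 47.9 and 29.7 and 9.08, 5.97 and 16.6 (-2.13 ± 0.54, adjusted p = 0.0669). Lgr5 was at -2.29 ± 0.57, Csrp2 at -1.52 ± 0.37 and Cavin2, of caveolae, at -1.03 ± 0.27. Mylip and Fgl2 were also lower, with log2 fold changes of -2.25 and -1.35. Nupr1, Slc9a3r2, Bbln and Itgbl1 were higher, at 1.20, 1.15, 1.29 and 1.05.

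These 20 genes passed in each case when SMKO 2 was left out, and 15 of the 17 that were tested passed in the fit of the CTRL and DKO libraries alone, Nr4a1 and Bbln being the exceptions. Those fits called 139 of 7627 genes (1.82%) and 99 of 5763 (1.72%), and shared 95 calls. Without SMKO 2, 4 of 10 tested fibrillar collagens rose (Col1a1, Col1a2, Col2a1 and Col5a2), 3 of 17 basement membrane genes (Col4a1, Col4a2 and Col15a1), 3 of 24 genes of collagen handling (Pcolce, Serpinh1 and Sparc) and 5 of 14 serpins and cystatins, against 1.15% higher among all genes of that fit. In the same fit 3 of 11 genes of the IGF list fell and 1 rose, 1 of 12 Notch genes fell (Notch2), and 2 of 24 valve transcription factors fell (Gata3 and Foxc2), against 0.669% lower among all. The fit of the pair alone, with 1.16% of all genes higher and 0.555% lower, gave 2 fibrillar collagens (Col1a1 and Col5a2), the same 3 basement membrane genes, 2 genes of collagen handling and no Notch gene. Counting list members and these 20 genes in those fits was decided after the values had been seen.

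**Figure D5:**
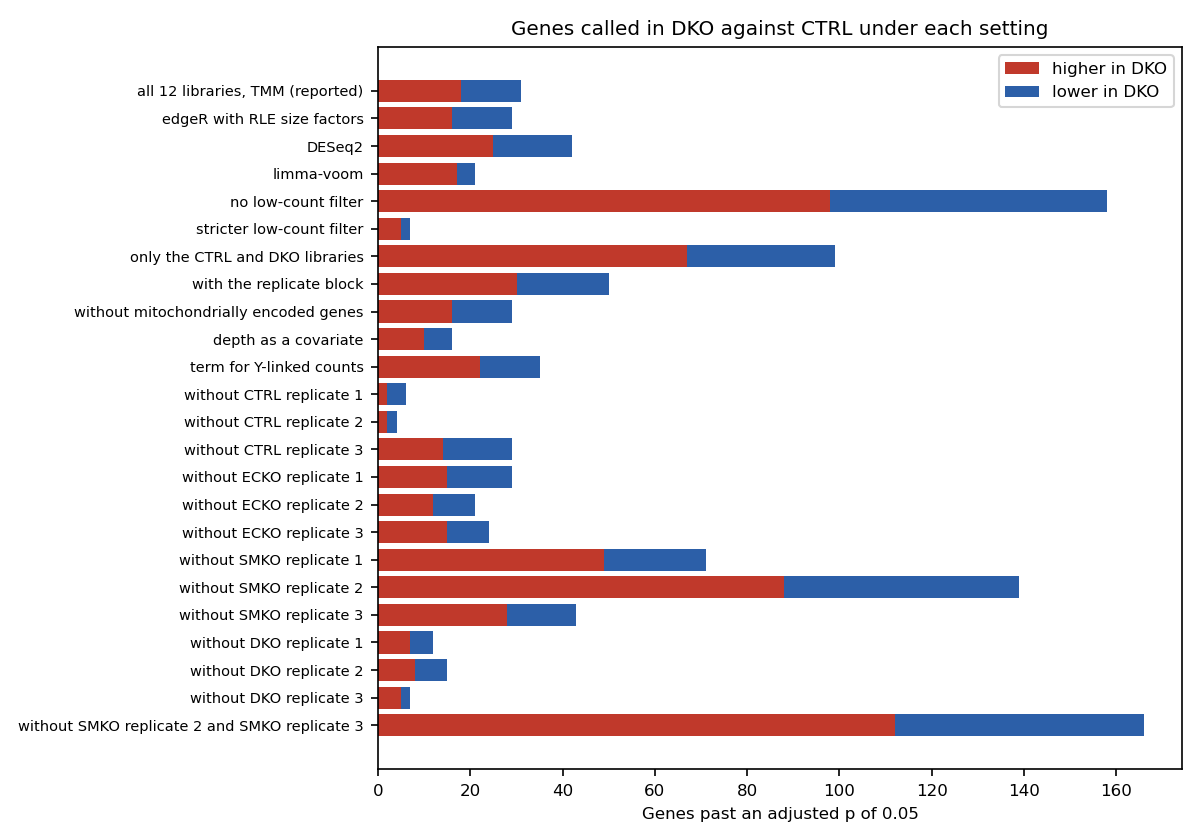
Number of genes past an adjusted p of 0.05 in DKO against CTRL under each setting of the analysis, split into higher (red) and lower (blue). The count is 31 as reported, between 4 and 139 when 1 library is left out, and 166 without SMKO 2 and SMKO 3.

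The authors' deposited table gives a signed fold change and a p-value for the same comparison. In the authors' deposited table all 31 genes had the sign found here and a p-value under 0.05, the largest being 0.00301 for Efemp2. Of 16588 genes with a p-value in the authors' deposited table, 1151 or 6.94% were under 0.05. The libraries are the same, so this is no separate evidence.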

How the data were processed

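The members and the gene lists were chosen with earlier results of these data known. Hearts fixed in paraformaldehyde were sectioned and leaflets cut out by laser, per the labels' protocols. Amplified cDNA went through the Nextera XT kit, and a MiSeq read paired ends of 75 bases. The submitters' processing notes name the build GRCm39; neither the aligner nor the counting program nor its use of strand was found in the labels or headers. Per the file headers, the authors deposited total counts and TPM for each library, together with a signed fold score and a p-value for DKO against CTRL; whether that p-value was adjusted is not stated there.

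filterByExpr, at a minimum count of 10 and by group, kept 6296 genes with 93.1% of counts. All 4 groups of 3 libraries were fitted in edgeR 4.0.16 under R 4.3.3, with TMM scaling and the robust quasi-likelihood F test (8 residual degrees of freedom). P-values were adjusted by Benjamini-Hochberg. The standard error of a log2 fold change is its size divided by the root of F. Totals ran from 74827 to 615665 counts, and replicates of the pair differed by more than sampling noise (chi-square per degree of freedom 3.08 to 12.2). The code was tested on simulated data. DESeq2 1.42.0, limma-voom (limma 3.58.1), other filters, covariates and left-out libraries were alternatives. Named genes were drawn from Efemp2, every called gene, the next 20 genes by p, up to 5 uncalled members of each list by p and the 10 largest differences in CPM; other list members are given by log2 fold change, and 1 gene is not reported here. Exon overlaps come from the GENCODE M21 annotation, which is on GRCm38, and were matched by Ensembl gene identifier. Only overlaps between genes annotated as protein-coding were looked for.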

Additional observations from a re-analysis of the deposited data

How the results depend on the processing

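No gene among the 31 changed direction in any setting. The count of 31 (18 higher and 13 lower) was 158 (98 and 60) with no low-count filter, where 16588 genes were tested, 7 (5 and 2) with a stricter filter of 30 counts, where 2196 were tested, 99 (67 and 32) with the CTRL and DKO libraries alone and 16 (10 and 6) with depth as a covariate. Limma-voom called 4 genes lower, against 13. It kept 16 of the 31 calls, and the other 15, Efemp2 among them, missed the threshold. Other settings kept the count within 1.5 times: 42 with DESeq2, which called 15 of the 31 and put Nes and Capg just past the threshold, the rest having no adjusted p, 29 with RLE size factors, 29 without mitochondrially encoded genes and 35 with a term for Y-linked counts. Leaving out 1 library gave from 4 to 139 calls, from 2 to 88 higher and from 2 to 51 lower. An alternative added after seeing the data, without SMKO 2 and SMKO 3, gave 166 (112 and 54) and shared all 31.

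With the replicate block the count was 50 (30 higher and 20 lower), of which 29 were among the 31; Myoc and Ccl19 were not. The labels do not say that a number marks a pair, and same-numbered DKO and CTRL libraries had deviations correlated at 0.0156, 0.0295 and 0.0979, so the numbers were not taken to pair them. Efemp2 kept its direction in all settings that tested it and missed with limma-voom (-5.10, adjusted p = 0.106) and, among the left-out libraries, without CTRL 1 (-7.07, adjusted p = 0.0592; range -7.82 to -7.07). With no filter, 11 of 44 list medians moved by more than their spread, among them that of elastic fibre genes, from 0.05 to -0.51, and that of large proteoglycans, from -0.10 to 0.41. The cause of these changes was not tested. Depth limits what can be seen: 3 counts were worth 3.11 CPM over the pooled DKO libraries, and 18 of the 31 genes had a library with fewer than 10 counts.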

Other observations

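Some gene groups outside the matrix held differences that did not pass in edgeR's model of all 12 libraries. In the list of renin-angiotensin, natriuretic peptide and endothelin genes, Ace, which makes angiotensin II, stood at 232, 216 and 319 CPM in CTRL 1, 2 and 3 and 499, 532 and 531 in DKO 1, 2 and 3 (log2 fold change 1.06 ± 0.29, SE; edgeR adjusted p = 0.0893). Ednrb, an endothelin receptor, stood at 81.6, 69.5 and 29.7 and 9.08, 29.9 and 24.9 (-1.53 ± 0.39, adjusted p = 0.0664). Nppc, the C-type natriuretic peptide, stood at 24.8, 20.1 and 29.7 and 86.3, 47.8 and 53.9 (1.35 ± 0.41, adjusted p = 0.15). Without SMKO 2, Ace and Ednrb passed and Nppc did not, and DESeq2 called Ace.

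Interferon-stimulated genes lay above 0 in 9 of 12 cases (median 0.24), none called by edgeR, DESeq2 or limma-voom and 4 higher and 1 lower at an unadjusted p under 0.05. Ifit1, which binds foreign RNA, stood at 18.9, 34.0 and 29.7 CPM in CTRL and 204, 43.8 and 120.3 in DKO (2.07 ± 0.75, adjusted p = 0.303), DKO 1 being the highest and DKO 2 the lowest of the DKO libraries. The sum over the 18 listed macrophage genes had the same order, at 2724, 1173 and 2189 CPM in DKO 1, 2 and 3. Single markers differed: Cd68, Mrc1 and Adgre1 had that order too, while Csf1r and C1qa were highest in DKO 3. A link between Ifit1 and these genes was not tested. Pdgfra, a receptor that marks interstitial cells, stood at 184, 255 and 141 in CTRL and 45.4, 67.7 and 66.3 in DKO without overlap (-1.71 ± 0.44, adjusted p = 0.12). Spp1, or osteopontin, a protein of mineralizing tissue, stood at 103, 47.9 and 81.7 in CTRL and 449, 1038 and 643 in DKO, and at 13.6, 1089 and 193 in SMKO 1, 2 and 3 (3.21 ± 1.38, adjusted p = 0.418). Pdgfra passed in DESeq2, without SMKO 2 and with the CTRL and DKO libraries alone, while Spp1 passed in that last fit and not in DESeq2 or without SMKO 2.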
